A study of Mus musculus with 32 samples.

Results

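The genes Ky, Mylk4, Tmem233, Smco1, Odf3l2 and Gm49477 were followed through the loss of nerve supply to the gastrocnemius (GAS) muscle of mice. They were 6 of the 33397 genes measured, and each had been picked because its RNA was far below the 0 d level on at least 1 day post denervation. Ky and Mylk4 were picked on the comparison of 1 d with 0 d, Tmem233 and Smco1 on that of 3 d with 0 d, and Odf3l2 and Gm49477 on those of 14, 21 and 28 d with 0 d. Every difference of these 6 genes from 0 d below is therefore a description of timing and extent and carries no test. RNA sequencing covered GAS muscles of C57BL/6 mice (C57BL/6J in the study's methods) at 0, 1, 3, 5, 7, 14, 21 and 28 d, with 4 samples per day and 32 samples in all. According to those methods the mice were males several weeks old, and the muscle was denervated by cutting the sciatic nerve. In the labels the 0 d samples carry the nerve transection too, whereas the study speaks of a sham group, so the 0 d samples are called 0 d here. The study describes its samples as biologically independent, but nothing in the sources used here ties a column of values to a single animal. The limma p-values rest on the spread between samples of the same day, pooled over all 8 days.

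Ky encodes the kyphoscoliosis peptidase, a protein of the Z-disc region that binds filamin C and whose absence in the ky mouse leads to muscle degeneration and a bent spine. Mylk4 belongs to the myosin light chain kinases, enzymes that phosphorylate the regulatory light chain of myosin under the control of calcium and calmodulin. Tmem233 is a small membrane protein of the dispanin family, Smco1 a single-pass membrane protein with coiled-coil domains, Odf3l2 a relative of an outer dense fibre protein of sperm tails, and Gm49477 a long intergenic non-coding RNA. Denervated skeletal muscle is known to change its transcription within days and to lose fibre mass over weeks.

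In GRCm38, with the gene models of GENCODE mouse release 21, Ky lay on chromosome 9 from 102505750 to 102546239 on the plus strand, with 5879 bases of merged exons. Mylk4 lay on chromosome 13 from 32700834 to 32783954 on the minus strand (7689 exonic bases), and Tmem233 on chromosome 5 from 116038755 to 116083244 on the minus strand (2477 exonic bases). Smco1 lay on chromosome 16 from 32271468 to 32274781 on the plus strand (1410 exonic bases), and Odf3l2 on chromosome 10 from 79639526 to 79645738 on the minus strand (1248 exonic bases). Gm49477 occupied chromosome 15 from 103135881 to 103140669 on the plus strand with 841 exonic bases, inside the span of the antisense long non-coding gene D930007P13Rik. The small nuclear RNA gene Gm27342 lay antisense within Mylk4, with 0 shared exonic bases. The exons of Gm49477 and D930007P13Rik shared 0 bases, and D930007P13Rik had mean levels of only 0.148 to 0.361 FPKM on the 8 days. Values are FPKM, that is, fragments scaled by the exon length of a gene and by the total of the sample, so levels of different genes can be set side by side.

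Sequencing depth differed little between the days. Between 14199902 and 17561584 fragments were recovered per sample, and mitochondrial genes took 14.5% to 18.2% of them at 0 d and 6.69% to 17.1% later. Across the 11943 genes with a mean of at least 1 FPKM, the median difference from 0 d on the log2(FPKM + 1) scale was 0.12 at 1 d and 0.20 to 0.32 afterwards. The label tissue was checked on 15 myofibre markers, whose summed level was 31043 to 59764 FPKM in the 32 samples, while 6 retina markers, tested because the labelled extraction text names retina, summed to 0.0772 to 0.528 FPKM.

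The promoters of the 4 protein-coding genes found in the RefSeq table are shown because Ky, Tmem233 and Smco1 had their lowest means at 3 d and Mylk4 did not. Each covers 250 bases before and 50 bases after the RefSeq start on the gene's own strand in GRCm38.p6, namely chr9:102505888-102506187 for Ky, chr13:32783915-32784214 for Mylk4, chr5:116083218-116083517 for Tmem233 and chr16:32271230-32271529 for Smco1. Capitals mark matches to the E-box, searched as CANNTG, and in Mylk4 also the first block in capitals, a match to the MEF2 motif.
Ky: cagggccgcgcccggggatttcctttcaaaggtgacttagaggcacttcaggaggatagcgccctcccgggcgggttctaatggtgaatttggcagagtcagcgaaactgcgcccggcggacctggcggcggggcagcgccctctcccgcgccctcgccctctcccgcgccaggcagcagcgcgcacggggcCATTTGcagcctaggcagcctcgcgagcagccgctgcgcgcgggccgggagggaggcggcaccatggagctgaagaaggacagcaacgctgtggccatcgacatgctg
Mylk4: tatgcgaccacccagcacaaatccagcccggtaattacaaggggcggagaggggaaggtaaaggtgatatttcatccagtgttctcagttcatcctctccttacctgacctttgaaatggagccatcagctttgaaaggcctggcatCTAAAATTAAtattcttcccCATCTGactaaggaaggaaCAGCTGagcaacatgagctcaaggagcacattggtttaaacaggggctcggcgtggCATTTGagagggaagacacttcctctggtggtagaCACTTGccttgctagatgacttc
Tmem233: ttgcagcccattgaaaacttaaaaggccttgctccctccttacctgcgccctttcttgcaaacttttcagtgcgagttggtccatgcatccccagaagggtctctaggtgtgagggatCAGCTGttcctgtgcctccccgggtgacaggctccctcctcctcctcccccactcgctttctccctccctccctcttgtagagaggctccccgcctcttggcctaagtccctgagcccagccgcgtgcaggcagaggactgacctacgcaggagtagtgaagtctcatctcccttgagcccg
Smco1: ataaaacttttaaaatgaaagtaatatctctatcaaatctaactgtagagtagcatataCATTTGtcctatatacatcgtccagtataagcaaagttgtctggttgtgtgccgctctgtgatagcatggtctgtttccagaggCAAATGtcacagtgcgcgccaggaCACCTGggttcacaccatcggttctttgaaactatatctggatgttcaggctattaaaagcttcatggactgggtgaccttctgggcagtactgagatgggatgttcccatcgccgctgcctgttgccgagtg
Ky and Tmem233 each held 1 E-box match, Smco1 held 3 and Mylk4 held 4. Both strands were searched, and the E-box reads the same way on either. Of 32851 promoters of this length in the same table, 72.3% held at least 1 E-box match. The MEF2 match of Mylk4 began at position -103 from the start, and 3.19% of all promoters held such a match. Neither the MCAT motif, searched as CATTCC and held by 14.7% of all promoters, nor the CArG motif, held by 1.63%, had a match in these 4 windows. Odf3l2 and Gm49477 had no entry in the table under these symbols, and other names were not searched.

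Ky had the largest fall of all genes tested at 1 d and, although it was picked on that day, the 3rd largest at 3 d. At 0 d its 4 samples stood at 47.8, 46.1, 72.7 and 63.7 FPKM, and at 1 d at 9.02, 9.54, 8.28 and 5.93. At 3 d they stood at 0.644, 0.61, 1.28 and 0.958. Each of these 3 days lay clear of the others, with 14.2% ± 2.77 (SD, n = 4) of the 0 d mean left at 1 d and 1.52% ± 0.548 at 3 d. The counting interval of the share at 3 d, from 336 fragments in 4 samples, ran from 1.36% to 1.69%, and this and the intervals below cover counting error only.

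The minimum of Ky was passed by 5 d, when the samples read 3.89, 5.09, 4.62 and 4.55 FPKM, or 7.88% ± 0.858 of the 0 d mean. The step from 3 to 5 d used no sample on which Ky had been picked and was a rise of 1.57 on the log2(FPKM + 1) scale (SE 0.136, limma adjusted p = 1.19e-09), in which all 4 samples at 5 d lay above all 4 at 3 d (two-sided exact permutation p = 0.0286, the smallest that 4 against 4 samples can give). Of the 22071 genes tested, 5.76% were called between these days, a call being an adjusted p under 0.05 together with a 1.5-fold difference. Ky then read 3.44, 2.78, 2.45 and 2.91 FPKM at 7 d, below every sample of 5 d. This difference of -0.51 (SE 0.136, limma adjusted p = 0.0449) was under 1.5-fold on the log2(FPKM + 1) scale and was not called, although the ratio of the mean FPKM was 0.638, on a step at which 0.657% of all genes were.

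From 14 d on Ky stayed in a narrow band, with 3.41, 4.19, 3.72 and 3.20 FPKM at 14 d and 5.12, 5.14, 4.64 and 4.34 at 21 d. At 28 d the samples stood at 5.11, 5.57, 4.33 and 5.61 FPKM, or 8.95% ± 1.03 of the 0 d mean. Between 3 and 28 d Ky rose by 1.72 on the log2(FPKM + 1) scale (SE 0.136, limma adjusted p = 4.01e-11) without overlap of the samples. The mean FPKM at 28 d was 5.90 times that at 3 d. For this pair of days 12% of all genes were called in either direction. None of the steps from 7 to 14, 14 to 21 and 21 to 28 d was called for Ky, with differences of 0.25, 0.33 and 0.08.

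**Figure D1:**
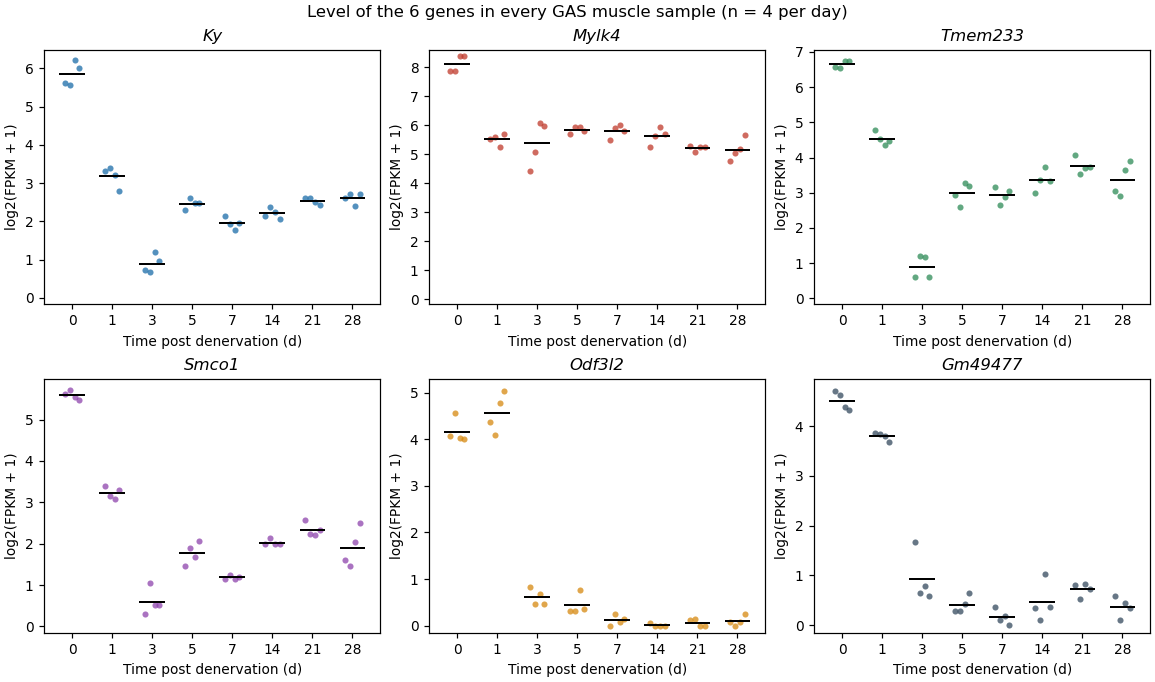
Level of each gene in every sample, as log2(FPKM + 1) on the vertical axis against days post denervation (0 to 28 d, not to scale); points are samples (n = 4 per day) and bars the mean of a day. Ky, Tmem233 and Smco1 had their lowest means at 3 d and stood higher on every later day, Mylk4 stayed between 4.44 and 6.07 from 1 d on, and Odf3l2 and Gm49477 dropped between 1 and 3 d.

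Mylk4 was the most abundant of the 6 genes at 0 d, at 230.3, 231.4, 332.7 and 335.7 FPKM. Those samples formed a lower and a higher pair, and the higher pair was also the higher pair for Ky. At 1 d the values were 45.3, 47.4, 37.0 and 51.0 FPKM, which left 16.0% ± 2.1 of the 0 d mean and no overlap with 0 d. This was the 2nd largest fall at 1 d (-2.60 on the log2(FPKM + 1) scale, against -2.66 for Ky), and the next gene in that order, Atp1b1, a subunit of the sodium pump, stood at -2.47.

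From 1 d on the daily means of Mylk4 stayed between 12.6% and 20% of the 0 d mean. Its 3 d samples spread widely, at 20.7, 32.9, 66.2 and 62.5 FPKM, and averaged 16.1% ± 7.90 of the 0 d mean. The share was 20% ± 1.63 at 5 d and 19.7% ± 3.12 at 7 d, with 17.3% ± 3.35, 12.8% ± 0.938 and 12.6% ± 3.57 on the 3 later days. No step between consecutive days from 3 d on was called for Mylk4, and the largest of them was 0.45 from 3 to 5 d (limma adjusted p = 0.205), which passed the threshold at 0.67 (adjusted p = 0.0401) without the 3 d sample of 66.2 FPKM and was 0.13 (adjusted p = 0.759) without that of 20.7 FPKM.

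Between 3 and 28 d the difference of Mylk4 was -0.24 (SE 0.242, 95% interval -0.73 to 0.26, limma adjusted p = 0.498), with overlapping samples. The interval holds both no difference and a fall of over 1.5-fold. Leaving out 1 sample moved this difference from -0.01 without the 3 d sample of 66.2 FPKM to -0.56 (limma adjusted p = 0.0404, under 1.5-fold and not called) without the 3 d sample of 20.7 FPKM. Against 5 d, a comparison chosen after the values were seen, the 28 d samples of 25.9, 31.8, 35.4 and 49.7 FPKM lay below the 5 d samples of 50.8, 60.0, 60.5 and 54.7. This difference of -0.68 (SE 0.242, limma adjusted p = 0.0458) was called, at a background of 4.81% of all genes between these days, but it lost its call in 7 of 8 fits that left out 1 of these samples and in 3 of 9 other settings, with adjusted p from 0.0132 to 0.164.

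Tmem233 had the largest fall of all genes at 3 d. Its 0 d samples read 94.5, 91.9, 105.6 and 106.7 FPKM, a narrow group, and its 1 d samples 26.4, 22.2, 19.7 and 21.03, or 22.4% ± 2.91 of the 0 d mean. At 3 d they read 0.527, 1.33, 1.24 and 0.526 FPKM. That left 0.908% ± 0.440 of the 0 d mean, on 147 fragments in 4 samples (counting interval 0.770% to 1.07%), the lowest share that Ky, Mylk4, Tmem233 or Smco1 reached on any day.

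At 5 d Tmem233 was back at 6.62, 5.02, 8.76 and 8.13 FPKM (7.15% ± 1.67), above all 3 d samples. The 3 d samples had served to pick it, so that step is a value and not a test. The level at 7 d, 7.99, 5.27, 6.35 and 7.28 FPKM, lay under all 1 d samples, and this difference of -1.60 (SE 0.193, limma adjusted p = 8.96e-08), chosen after the values were seen, used neither 0 nor 3 d. Between 1 and 7 d 13.9% of all genes were called.

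Afterwards Tmem233 stood at 6.99, 9.37, 12.3 and 9.11 FPKM at 14 d and at 15.7, 10.7, 12.2 and 12.2 at 21 d. At 28 d its samples spread over 7.26, 6.56, 11.5 and 13.8 FPKM, or 9.82% ± 3.48 of the 0 d mean. From 5 to 28 d the difference was 0.38 (SE 0.193, 95% interval -0.02 to 0.77, limma adjusted p = 0.197), with overlapping samples, and it was 0.20 without the 28 d sample of 13.8 FPKM and 0.24 without the 5 d sample of 5.02 FPKM. None of its 4 tested steps between consecutive days was called.

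Smco1 had its lowest mean at 3 d, as Tmem233 and Ky did, and its 7 d samples, as those of Ky, lay under its 5 d samples. Its 0 d samples read 48.0, 51.5, 45.8 and 43.7 FPKM and its 1 d samples 9.59, 7.84, 7.48 and 8.81 (17.8% ± 2.02), against 0.231, 1.06, 0.436 and 0.420 at 3 d (1.14% ± 0.764). The 3 d values rest on 5 to 25 fragments per sample and 50 in all, with a counting interval of 0.854% to 1.52%. Smco1 had the 2nd largest fall at 3 d, -4.996 on the log2(FPKM + 1) scale, just ahead of Ky at -4.955.

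By 5 d Smco1 was at 1.73, 2.69, 2.20 and 3.20 FPKM, above all 3 d samples. At 7 d it read 1.23, 1.38, 1.22 and 1.28 FPKM, under every 5 d sample, with a difference of -0.58 (SE 0.161, limma adjusted p = 0.0564) that missed the threshold and passed it at -0.69 (adjusted p = 0.0356) without the lowest 5 d sample. Against 1 d the difference of the 7 d level was -2.04 (SE 0.161, limma adjusted p = 2.64e-11), again chosen after the values were seen.

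From 7 to 14 d Smco1 rose by 0.84 (SE 0.161, limma adjusted p = 0.00228), to 2.99, 3.39, 2.96 and 2.99 FPKM, all above the 7 d samples (two-sided exact permutation p = 0.0286). Few genes moved at this step, as 0.634% of all genes tested were called in either direction. At 21 d the samples were higher again, at 4.93, 3.71, 3.61 and 4.02 FPKM, but the step of 0.31 was not called (limma adjusted p = 0.428), and 0.453% of all genes were.

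At 28 d Smco1 spread over 2.03, 1.77, 3.13 and 4.61 FPKM, which overlapped 21 d. The step of -0.43 (limma adjusted p = 0.369) was not called, on a step with 0.199% of all genes called, and passed the threshold at -0.63 (adjusted p = 0.0453) without the 28 d sample of 4.61 FPKM. From 5 to 28 d the difference was 0.13 (SE 0.161, 95% interval -0.20 to 0.46, limma adjusted p = 0.666). This interval rests on a spread pooled over all days, and the SE was 0.221 in the fit of only these 2 groups. By limma-voom the difference was 0.17 (SE 0.239). It was -0.06 without the 28 d sample of 4.61 FPKM and 0.27 without that of 1.77 FPKM, so a change of 1.5-fold was not excluded.

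**Figure D2:**
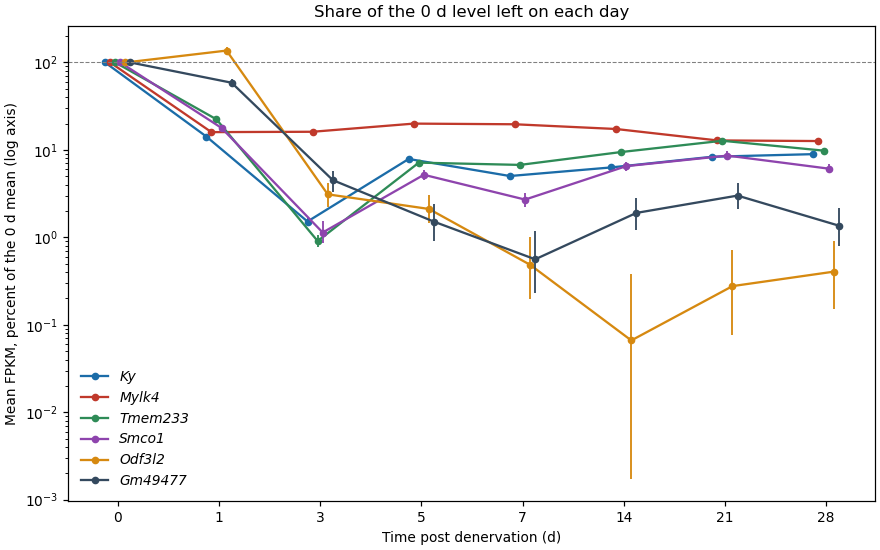
Mean FPKM of each gene as a percentage of its 0 d mean (log axis) against days post denervation; points are means of 4 samples, and vertical lines are exact 95% counting intervals from the summed fragments. At 3 d Ky, Tmem233 and Smco1 were at 1.52%, 0.908% and 1.14%, at 28 d at 8.95%, 9.82% and 6.11%, while Odf3l2 stood at 137% at 1 d and under 1% from 7 d on.

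Odf3l2 was the one member not lower at 1 d. Its samples read 15.7, 22.7, 15.4 and 15.04 FPKM at 0 d and 19.7, 16.0, 26.4 and 32.1 at 1 d, overlapping groups with a mean of 137% ± 41.3 of the 0 d mean. At 3 d they read 0.785, 0.383, 0.591 and 0.380 FPKM, from 8 to 15 fragments each. The difference from 1 to 3 d was -3.96 (SE 0.146), with all 3 d samples under all 1 d samples. Odf3l2 and Gm49477 were picked for near-absence from 14 d on, which fixes that they dropped somewhere before, so their steps between earlier days are values without a test. The drop of Odf3l2 from 1 to 3 d was the largest fall of all genes on that step, on which 10.6% of genes were called in either direction.

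By 7 d Odf3l2 was near the limit of detection. At 5 d it read 0.238, 0.245, 0.690 and 0.281 FPKM, a step of -0.17 with overlapping samples, which was -0.10 without the 3 d sample of 0.785 and -0.28 without the 5 d sample of 0.690. At 7 d the 4 samples held 0, 4, 1 and 2 fragments, a step of -0.32 in which all 7 d samples lay under all 5 d samples, and of -0.21 without the 5 d sample of 0.690. The difference between 1 and 7 d was -4.46 (SE 0.146). Its size depends on the pseudocount because 7 d is near the floor of 3 fragments per sample.

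The later days of Odf3l2 held 1 fragment at 14 d, 4 at 21 d and 6 at 28 d, each summed over 4 samples, against 1316 at 0 d. As shares of the 0 d mean these were 0.0663% (counting interval 0.00172% to 0.380%) at 14 d, 0.277% (0.0765% to 0.722%) at 21 d and 0.405% (0.152% to 0.904%) at 28 d. Of the 6 fragments at 28 d, 4 came from 1 sample, without which the share was 0.186%. On leaving out 1 sample the share ranged from 0% to 0.0884% at 14 d and from 0.178% to 0.369% at 21 d. The 3 intervals overlap, so no order among these days was detectable at this depth.

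Gm49477 fell in stages, and its samples did not overlap between 0, 1 and 3 d. Its 0 d samples read 25.3, 23.7, 19.9 and 19.0 FPKM, its 1 d samples 13.6, 13.3, 12.9 and 11.8 and its 3 d samples 2.17, 0.569, 0.730 and 0.493. The 1 d level was 58.7% ± 3.51 of the 0 d mean, a tight group, and the 3 d level 4.51% ± 3.62, in which the sample of 2.17 FPKM stood apart from the other 3 and without which the share was 2.72%. From 1 to 3 d the difference was -2.87 (SE 0.182).

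At 5 d the samples of Gm49477 read 0.212, 0.219, 0.341 and 0.557 FPKM, a step of -0.52 from 3 d on the log2(FPKM + 1) scale with overlapping samples, and a ratio of the mean FPKM of 0.335. Leaving out 1 sample moved this step from -0.63 without the 3 d sample of 0.493 to -0.27 without that of 2.17. At 7 d the samples held 4, 1, 2 and 0 fragments, a step of -0.24 from 5 d with overlapping samples. Between 1 and 7 d the difference was -3.63 (SE 0.182), again near the floor at the later day.

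Unlike Odf3l2, Gm49477 had fragments in every sample from 14 d on. It read 0.271, 0.0685, 1.05 and 0.286 FPKM at 14 d, 0.751, 0.439, 0.783 and 0.667 at 21 d and 0.496, 0.0708, 0.360 and 0.271 at 28 d. Its share of the 0 d mean was 3.00% (counting interval 2.12% to 4.19%) at 21 d and 1.36% (0.791% to 2.19%) at 28 d. These days had served to pick the gene, and no test was made between them. Gm49477 shares no exon with D930007P13Rik on the other strand but lies inside its span, and the strand handling of the counts is not given in the sources used here. Whether unspliced reads of D930007P13Rik were counted for Gm49477 therefore cannot be told.

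Side by side, the lowest mean fell at 3 d for Ky, Tmem233 and Smco1, at 7 d for Gm49477, at 14 d for Odf3l2 and at 28 d for Mylk4. In 41 of the 42 combinations of a gene and a day, every denervated sample lay under every 0 d sample, the exception being Odf3l2 at 1 d. The members had been picked for such falls, and the share of all genes without overlap was not computed, so this count has no background. Calls are another measure. Over all genes 2.49% were called lower and 6.34% higher at 1 d, and 6.03% lower and 13.2% higher at 3 d. At 28 d 4.1% were called lower and 14.2% higher. Of the 22071 genes tested, 852, 905, 845 and 867 were called lower at 5, 7, 14 and 21 d. Those called higher were 3296, 3403, 3230 and 2599. The split of all genes turned with the scaling, since 550 lower and 1400 higher at 1 d, 1330 and 2924 at 3 d, and 906 and 3143 at 28 d became 1032 and 913, 2020 and 1987, and 1789 and 1450 with median-ratio scaling, under which the shares left to the 6 genes were smaller. At 28 d the order of the shares left was Mylk4 (12.6% ± 3.57), Tmem233 (9.82% ± 3.48), Ky (8.95% ± 1.03), Smco1 (6.11% ± 2.74), Gm49477 (1.36% ± 0.811) and Odf3l2 (0.405% ± 0.457), in which the ranges of mean ± SD overlap between neighbours among the first 4 and between the last 2.

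Of 18 steps of Ky, Mylk4, Tmem233 and Smco1 between consecutive denervated days that avoided the days of picking, 2 were called, namely Ky from 3 to 5 d and Smco1 from 7 to 14 d. The share of all genes called differed widely between these steps, from 0.199% from 21 to 28 d to 5.76% from 3 to 5 d. Across the 32 samples, log2(FPKM + 1) of Ky had Pearson's r of 0.962 with Smco1 and 0.9503 with Tmem233, and Tmem233 one of 0.957 with Smco1. Odf3l2 and Gm49477 had an r of 0.966 with each other, while Mylk4 and Odf3l2 had the lowest of the 15 pairs, 0.554. These coefficients are descriptions, as the samples share the day groups and all 6 genes were picked for a low level after denervation.

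**Figure D3:**
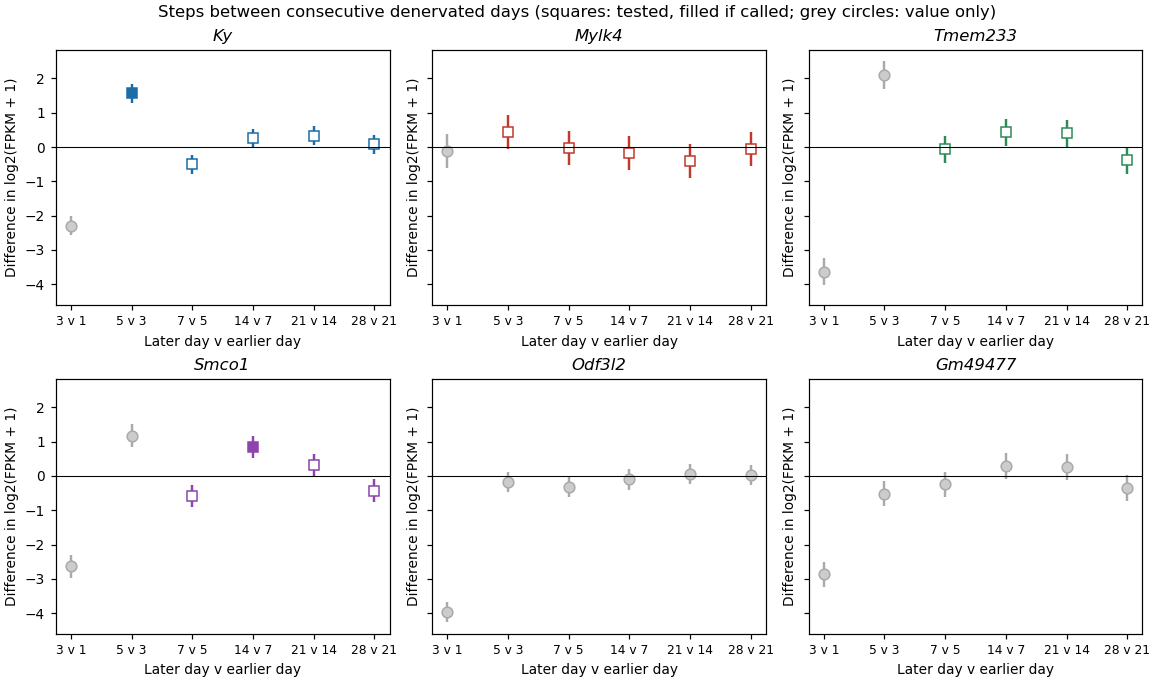
Difference in log2(FPKM + 1) between consecutive denervated days (later minus earlier) with its 95% interval from limma, for each gene; squares are tested steps, filled where called, and grey circles are values only, namely steps that use a day of picking and all steps of Odf3l2 and Gm49477. The filled squares of Ky (1.57, 3 to 5 d) and Smco1 (0.84, 7 to 14 d) lie above 0, and the circles of Odf3l2 (-3.96) and Gm49477 (-2.87) at 1 to 3 d lie below it.

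The listed partners of Ky moved in both directions. Of 9 genes for its binding partners and for chaperone-assisted autophagy of Z-disc proteins, 3 were higher and 2 lower at 1 d, 5 higher and 1 lower at 3 d, and 4 higher and 0 lower at 28 d, with median differences of 0.53, 0.96 and 0.49. Over all genes tested, 6.34% were called higher and 2.49% lower at 1 d, 13.2% and 6.03% at 3 d, and 14.2% and 4.1% at 28 d, and these shares are the background for this and the other lists on these days. Flnc, filamin C, the actin cross-linker to which Ky binds, rose from 74.5 ± 6.48 FPKM at 0 d to 580.6 ± 34.4 at 3 d (log2 difference 2.95, SE 0.0909, limma adjusted p = 2.88e-20) and was at 165.4 ± 19.8 at 28 d (adjusted p = 2.5e-11). Igfn1, another Ky-binding protein of the Z-disc, was at 3.56 ± 2.55 FPKM at 0 d, 13.4 ± 3.58 at 3 d and 361.4 ± 68.9 at 28 d (log2 difference 6.44, limma adjusted p = 1.87e-17).

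Among the chaperones and co-chaperones of this list, Hspb8, Bag3 and Hspa8 were called higher at 3 d and Stub1, a ubiquitin ligase that works with chaperones, was not called, at -0.33 (limma adjusted p = 0.00254). Hspb8, a small heat shock protein, went from 230.5 ± 24.8 FPKM to 2170.4 ± 127.7 at 3 d (log2 difference 3.23, limma adjusted p = 4.31e-21), and its co-chaperone Bag3 from 56.4 ± 4.68 to 110.2 ± 2.73 (0.96, adjusted p = 8.11e-12). Synpo2, which takes part in the same autophagy route at the Z-disc, fell from 46.1 ± 2.85 to 12.7 ± 2.71 FPKM at 1 d (log2 difference -1.81, limma adjusted p = 9.26e-13). Mybpc1, a thick filament protein among the listed partners, was the other gene called lower at 1 d (-0.65, adjusted p = 0.0098). Ttn, the titin gene, was at 57.8 ± 11.1 FPKM at 0 d and 66.8 ± 6.41 at 28 d and was not called at 1, 3 or 28 d.

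Among 13 genes for other myosin light chain kinases, light chains, calmodulins and the light chain phosphatase, 1 was higher and 3 lower at 1 d, 1 higher and 7 lower at 3 d, and 2 higher and 3 lower at 28 d. Mylk2, the main skeletal muscle light chain kinase, stood beside Mylk4 at 260.2 ± 16.8 FPKM at 0 d. At 1 d it was at 178.3 ± 25.1 (log2 difference -0.55, limma adjusted p = 0.00102, under 1.5-fold and not called). It was at 93.2 ± 14.01 at 3 d (-1.48, adjusted p = 6.83e-11) and at 24.6 ± 3.86 at 28 d (-3.36, adjusted p = 2.41e-18). Mylk and Mylk3, the smooth and cardiac kinases, had mean levels of at most 3.10 FPKM at 0, 1, 3 and 28 d. Calm2, one of the calmodulin genes, fell from 193.9 ± 16.4 to 91.2 ± 3.42 FPKM at 1 d (-1.08, limma adjusted p = 1.25e-08) and Ppp1r12a, a phosphatase targeting subunit, rose from 7.61 ± 0.750 to 14.001 ± 0.714 (0.80, adjusted p = 8.37e-11).

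Of 12 genes listed for the dispanin family of Tmem233, 10 could be tested, and 4 were higher at 1 d, 2 at 3 d and 4 at 28 d, where 6.34%, 13.2% and 14.2% of all genes were. On these days 0 of the 10 were called lower by limma, where 2.49%, 6.03% and 4.1% of all genes tested were, so 0 is near the background. Ifitm5, Ifitm10, Prrt2, Tmem91 and Syndig1 stood at 0.256 FPKM or less at 0 d. That is too low for a 1.5-fold fall on the log2(FPKM + 1) scale, so limma could not have called these genes lower. By limma-voom on the recovered fragments 0 of the 10 were called lower, and 0 were lower at an unadjusted p under 0.05. Ifitm3, an interferon-induced membrane protein, rose from 64.5 ± 4.29 to 156.6 ± 9.66 FPKM at 28 d (log2 difference 1.27, limma adjusted p = 8.81e-06). Of 6 relatives of Smco1 and Odf3l2, 4 could be tested, and Smco4 was lower at 1 d, from 6.57 ± 0.278 to 3.11 ± 0.654 FPKM (-0.90, limma adjusted p = 5.06e-05), and at 3 d (-0.96, adjusted p = 1.06e-05), but was not called at 28 d. Odf3, Odf3b and Odf3l1 had means of at most 0.370 FPKM at 0, 1, 3 and 28 d and were not called. Over the 40 genes of these 4 lists, 6 were lower and 8 higher at 1 d, against 2.49% and 6.34% of all genes, which became 10 and 5 with median-ratio scaling, against 1032 and 913 of all 22071 genes, and the 3 lower at 28 d became 8.

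In bulk muscle, fewer cells of a type and less RNA per cell cannot be told apart. The 15 myofibre markers summed to 56723 to 59764 FPKM per sample at 0 d, 46522 to 53038 at 1 d, 31043 to 35929 at 3 d and 33298 to 37965 at 28 d. Of them 0 were higher and 1 lower at 1 d, 1 higher and 7 lower at 3 d, and 3 higher and 8 lower at 28 d, with medians of -0.15, -0.51 and -0.65. The shares of all genes called higher and lower were 6.34% and 2.49% at 1 d, 13.2% and 6.03% at 3 d, and 14.2% and 4.1% at 28 d, so the markers called higher at 28 d were near the background share. Their range at 3 d ran from -2.11 for Pvalb, the calcium buffer parvalbumin, to 0.73 for Des, the intermediate filament desmin. Tnnc2 was listed at 0.832 FPKM at 0 d, a low level for a defining fast-fibre gene.

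**Figure D4:**
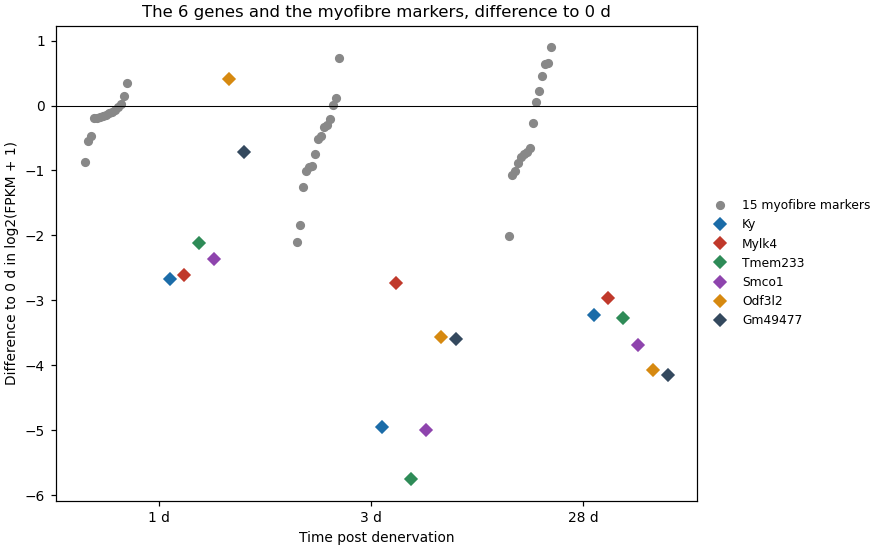
Difference from 0 d in log2(FPKM + 1) at 1, 3 and 28 d for the 6 genes (diamonds) and for 15 myofibre markers (grey points, ordered by size within a day). At 3 d the lowest marker was at -2.11 and the 6 genes were between -2.73 and -5.75; at 1 d Odf3l2 (0.40) and Gm49477 (-0.72) lay within the markers' range of -0.87 to 0.34 or above it.

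Other cell types also moved with the days. The 5 macrophage markers summed to 118.3 to 170.9 FPKM at 0 d and to 257.5 to 858.2 at 3 d, and 5 of 5 were higher from 3 d on. The 4 Schwann cell markers summed to 73.5 to 163.3 FPKM at 0 d, 18.2 to 105.5 at 1 d and 8.88 to 23.4 at 3 d, with 2 lower and 0 higher at 3 d. The 4 endothelial markers summed to 77.2 to 88.5 FPKM at 0 d and 45.3 to 63.0 at 3 d (3 lower), the 5 fibro-adipogenic markers to 387.7 to 515.1 and 247.4 to 612.4 (0 called at 3 d), the 3 tendon markers to 29.3 to 59.2 and 9.85 to 34.5 (1 higher, 1 lower), and the 3 satellite cell markers to 1.89 to 2.22 and 1.67 to 2.36 (0 called at 3 d). On the later days 3 of 5 fibro-adipogenic markers were higher at 5 d, 2 at 7 d and 1 each at 14, 21 and 28 d, and 1 of 3 satellite cell markers was higher at 14, 21 and 28 d. Of all genes, the share called higher was 14.9% on the 5 d comparison, 15.4% on that of 7 d, and 14.6%, 11.8% and 14.2% on the 3 later ones, so 1 gene of a list of 3 or 5 is near the background. The part of these shifts in the levels of the 6 genes was not tested.

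The genes most like each member were named by Pearson's r over the 32 samples among 13405 genes with at least 1 FPKM in at least 4 samples, as a description without a test. For Ky they were Asb18 (0.966), Sema6c (0.964), Smco1 (0.962), Aqp4 (0.959) and AC122818.4 (0.958), and for Smco1 Asb18 (0.973), AC122818.4 (0.973), Lynx1 (0.972), Pgam2 (0.971) and Kbtbd13 (0.969). Asb18, an ankyrin repeat protein of the SOCS box family, thus stood first in both lists. For Tmem233 they were Slc37a4 (0.977), Hrc, Ampd1, Bpgm and a second gene model named Aldoa (0.957), whose overlap with other genes was not examined.

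For Mylk4 the coefficients were lower, from 0.908 for St8sia5 over Rnf150, Lbx1 and Plpp7 to 0.904 for Fez2. The genes nearest to Odf3l2 were Msrb3 (0.967), Fhl3, Mlf1, Rpl3l and Gm33432 (0.966), and those nearest to Gm49477 were Myoz1 (0.984), Dhrs7c, Ano5, Lgalsl and Rpl3l (0.978). Rpl3l, a muscle form of a ribosomal protein, was shared by these last lists.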

How the data were processed

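RNA-seq of 32 GAS muscles was used. The authors deposited FPKM values for 33397 genes (the submitters' processing notes name CASAVA, HISAT2 2.1.0, DESeq2 and GRCm38; counter, annotation and strand handling are not given in the sources used here). Columns were matched to days by name, and the 4 control columns, which name no day, to 0 d by elimination. FPKM times merged exon length (GENCODE release 21, 33356 genes, 99.9%) returned whole fragments, within 0.05, for 99.3% to 99.4% of values under 200 fragments, which gave the depth and the exact 95% intervals. Since FPKM divides by the sample total, a shift in abundant genes moves all others.

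Differences were tested with limma 3.58.1 (R 4.3.3) on log2(FPKM + 1), which understates folds of low genes, in 1 fit of 32 samples with a variance trend. A gene entered if 4 or more samples reached 0.1 FPKM (22071 genes), and p-values were Benjamini-Hochberg adjusted over all of them. All 6 members passed this filter, Odf3l2 through its 0 to 5 d samples. Odf3l2 and Gm49477 were planned for tests between the earlier days, which are reported as values only. Exact permutation tests compared 4 with 4 samples. On simulated data this fit was tested beforehand. Members and gene lists were chosen with earlier results of these data known, and the other named genes are those of the lists and the 5 most correlated with each member. Alternatives were pseudocount, filter, TPM, median-ratio and quantile scaling, variance trend, fitting 2 groups, limma-voom on fragments, and leaving out each sample. Python 3.11.15 with scipy 1.17.1 served for the rest. Promoters came from RefSeq.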

Additional observations from a re-analysis of the deposited data

Results flagged for a closer look

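In groups of 4 samples, a sample was marked where its gap to the nearest other sample was above Dixon's 95% limit as a share of the group's range, which chance alone gives in about 1 in 20 groups. Of 48 groups of a gene and a day, 5 held such a sample. Smco1 at 14 d had 1 sample at 3.39 FPKM, with the others at 2.96 to 2.99. Odf3l2 had 1 sample at 22.7 FPKM at 0 d (others 15.04 to 15.7), 1 at 0.690 at 5 d (others 0.238 to 0.281), and 1 at 0.0456 at 14 d, a single fragment where the others had 0. Gm49477 at 3 d had 1 sample at 2.17 FPKM, with the others at 0.493 to 0.730.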

How the results depend on the processing

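No paired analysis was possible because the columns of values carry letters on the denervated days and numbers at 0 d that nothing in the sources used here ties to the numbered samples or to a shared animal, batch or day of surgery. Of 374 recomputed values of the 22 planned tests of Ky, Mylk4, Tmem233 and Smco1, 366 kept direction and side of the threshold, 3 newly passed it, 0 lost it and 5 changed sign, all 5 on leaving out 1 sample of a difference that was not called. Over the fits leaving out 1 sample, Smco1 from 5 to 28 d ranged from -0.0644 to 0.27, Mylk4 from 5 to 7 d from -0.11 to 0.0757, Mylk4 from 21 to 28 d from -0.23 to 0.0766 and Tmem233 from 5 to 7 d from -0.20 to 0.0322. The share of the 0 d level left was 0.585 to 1.18 times the main value under TPM, median-ratio and quantile scaling. The step of Gm49477 from 3 to 5 d was -0.82 with TPM and that of Odf3l2 from 5 to 7 d -1.34 with a pseudocount of 0.1. Counts of list genes moved with scaling: at 1 d 6 were lower and 8 higher, against 10 and 5 with median-ratio scaling, and at 28 d 3 were lower, against 8 with median-ratio and 5 with quantile scaling. Over all genes, the count called in either direction ranged over the 9 other settings from 2171 to 4093 for 1 to 3 d (main 2331), 1100 to 2835 for 3 to 5 d (1272), 124 to 213 for 5 to 7 d (145), 95 to 235 for 7 to 14 d (140), 73 to 180 for 14 to 21 d (100), 30 to 64 for 21 to 28 d (44), 2427 to 5107 for 3 to 28 d (2647), 1009 to 2095 for 5 to 28 d (1061) and 2775 to 5320 for 1 to 7 d (3070). Against 0 d, the 906 lower and 3143 higher at 28 d became 1789 and 1450 with median-ratio scaling, 1616 and 1593 with quantile scaling and 896 and 6320 with TPM, and a pseudocount of 0.1 gave 1395 and 5882. At 1 d the 550 lower and 1400 higher became 1032 and 913 with median-ratio scaling, 1127 and 2494 with a pseudocount of 0.1 and 634 and 2679 with TPM. At 3 d the 1330 lower and 2924 higher became 2020 and 1987, 2343 and 4504, and 1397 and 4961. The differences of Tmem233 and Smco1 between 1 and 7 d, added after seeing the data, kept their calls under each alternative. Since these comparisons were chosen from the same values, that adds no independent support. The cause of these shifts was not tested. Depth limits Odf3l2 and Gm49477 from 7 d on, at 7 fragments each at 7 d.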
